A study of Mus musculus with 16 samples.

Results

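The genes described here encode the machinery of programmed cell death in mouse retina: apoptosis, necroptosis and pyroptosis. They are 39 genes chosen by name and not by a cut on measured values, but with earlier results of these data known. An array probe set carrying exactly 1 gene symbol was listed for 36 of them, of 18193 genes with such a probe set in the series, and 26 passed the filter on low values, of 10916 genes tested. Where a gene had several probe sets, the one with the highest mean over all arrays stood for it.

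The series measured RNA of whole neural retina, dissected away from the pigment epithelium, on 16 Affymetrix 3′ arrays. All animals were BALB/c mice of 11-16 weeks, males and females, raised under 50 lux cyclic light; they were either Nxnl1+/+ (wild type) or Nxnl1-/- (knockout). The protein of Nxnl1, called rod-derived cone viability factor, resembles thioredoxin and is secreted by rods. After 16 h in darkness the mice were placed for 1 h under cool white lamps set to 50, 2500 or 5000 lux and were then kept dark for 24 h. In order of rising dose there were 2, 3 and 3 arrays of wild-type and 3, 3 and 2 of knockout retinas. The arrays are labelled biological replicates, and neither pooling of animals nor the making of the Nxnl1 allele is described in the labels. Differences are therefore differences between RNA samples taken 24 h after a single exposure, and fewer cells of a type and less RNA per cell cannot be told apart in them.

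In mitochondrial apoptosis, BH3-only proteins sense damage and either block the survival proteins of the BCL2 family or activate the pore formers BAX and BAK, whose pores release cytochrome c. Cytochrome c and APAF1 assemble the apoptosome, which activates caspase-9, while XIAP and its relatives hold caspases in check. Death receptors such as FAS reach the caspases through FADD and caspase-8, and caspase-8 also restrains necroptosis, in which RIPK1 and RIPK3 drive the membrane-disrupting protein MLKL; pyroptosis runs through caspases of the caspase-1 subfamily and gasdermins. Photoreceptors that die after light damage are also known to engage routes that need no caspase, among them calpains, the poly(ADP-ribose) polymerase PARP1 and the release of apoptosis-inducing factor.

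Values are log2 intensities as normalized by the authors. A probe set was tested if 2 or more arrays exceeded log2 4, which is an intensity of 16, and called if its adjusted p in limma, by the Benjamini-Hochberg method over all 23320 probe sets tested, was under 0.05. Nxnl1 itself lay between 5.64 and 7.61 on the 8 wild-type arrays and between 2.21 and 2.92 on the 8 knockout arrays, so no array went against its genotype label. Median array intensity ran from 14.4 to 15.1 on the 5 arrays at 50 lux and from 15.3 to 15.8 on the 11 arrays at 2500 and 5000 lux. Within groups, arrays correlated at 0.968 to 0.995, and no pair was identical. Cell type markers moved with light beside the genes described below. Of 10 genes of rods, the most numerous photoreceptors, 6 were called lower in wild-type retinas at each bright dose, 9 in knockout retinas at 2500 lux and 6 at 5000 lux. The summed intensity of 17 microglia and macrophage probe sets ran from 710 to 756 on wild-type and 1011 to 1356 on knockout arrays at 50 lux. At 2500 lux it ran from 2301 to 3606 and from 3278 to 3859, and at 5000 lux from 2299 to 2890 and from 2201 to 2203. Much of that rise lay in Lgals3, whose mean log2 level was 5.91 and 6.22 at 50 lux and 10.40 to 11.32 at the bright doses. Of 11 genes of this list tested, 7 were called higher in wild-type retinas at 2500 lux and 5 at 5000 lux, and 0 lower. In knockout retinas 4 were called higher and 1 lower at each bright dose. Cd14, Cd68, Lgals3 and Lyz2 were called higher in all 4 responses. Some genes of this list did not follow: Csf1r was lower in knockout retinas at 2500 lux (-1.11, adjusted p = 0.03), Ctss was lower at 5000 lux (-0.99, adjusted p = 0.048), and Cx3cr1 changed by -0.14 to 0.06. On all arrays 6 of the 17, among them Aif1, Itgam and Ptprc, were at or below log2 4, as were all 7 neutrophil and all 10 lymphocyte probe sets. Of 11 Müller glia genes, Gfap and Vim were called higher in all 4 responses (by 2.86 and 1.97 on the log2 scale in wild-type retinas at 2500 lux) and Glul and Rlbp1 lower in all 4. Ganglion cell genes were called lower in 4 of 9 cases in knockout retinas at 5000 lux and in at most 1 elsewhere. Of 6 endothelial and pericyte genes tested, Kdr alone was called, higher in all 4 responses. The median log2 change of the 6 was 0.55 and 0.27 in wild-type and -0.07 and -0.05 in knockout retinas. The 12 pigment epithelium probe sets summed to 9864 to 13855 on wild-type arrays at 50 lux, 5722 to 10356 at 2500 lux and 3289 to 4956 at 5000 lux. On knockout arrays the sums were 6273 to 12347, 3763 to 7705 and 4570 to 4741 at these doses. Of 10 such genes tested, 1 was called lower in wild-type retinas at 2500 lux and 7 at 5000 lux. In knockout retinas 1 was called lower and 2 higher at 2500 lux, and 0 were called at 5000 lux. Genes of the lens, a neighbouring tissue, summed to 88767 on wild-type 5000 lux replicate 2 and to at most 8090 elsewhere; at 50 lux they summed to 93.1 to 205 on wild-type and 1954 to 8090 on knockout arrays. Without that replicate 6 members rather than 7 were called in the wild-type response to 5000 lux. The part of these cell types in the results below was not tested.

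Of the 26 members tested, 7 were higher and 1 was lower in wild-type retinas at 2500 lux against 50 lux. Over all 10916 genes, 8.93% were called higher and 5.13% lower in that response. At 5000 lux, 6 wild-type members were higher and 1 lower, against 7.56% and 5.27% of all genes. In knockout retinas at 2500 lux 6 members were higher and 1 lower, against 8.87% and 13.5% of all genes, and at 5000 lux 3 were higher and none lower, against 4.60% and 7.81%. The share of members called higher was thus 26.9%, 23.1%, 23.1% and 11.5%, and the share called lower was 3.85% in the first 3 responses. The higher calls include Casp8 in the first 3 responses, Casp6 in both wild-type responses and Fas in both knockout responses. These genes were below log2 4 on every 50 lux array and passed the filter through bright arrays, so they could only have differed upwards. The same filter applied to all genes. Across the 4 responses 10 members were called at least once, 38.5% of the 26, against 30.4% of all genes. The median log2 change of the 26 members was 0.09 and 0.04 in wild-type and -0.0039 and 0.01 in knockout retinas at the respective doses. Over all genes it was 0.04, 0.0040, -0.08 and -0.09, so the typical member stayed near no change and the calls fell on a minority. The 2 responses of a genotype share their 50 lux arrays, so they are not separate tests. Without wild-type 50 lux replicate 2, the number of members called in wild-type retinas dropped to 4 at 2500 lux and 3 at 5000 lux, and without knockout 5000 lux replicate 2 that in knockout retinas at 5000 lux dropped to 1.

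**Figure D1:**
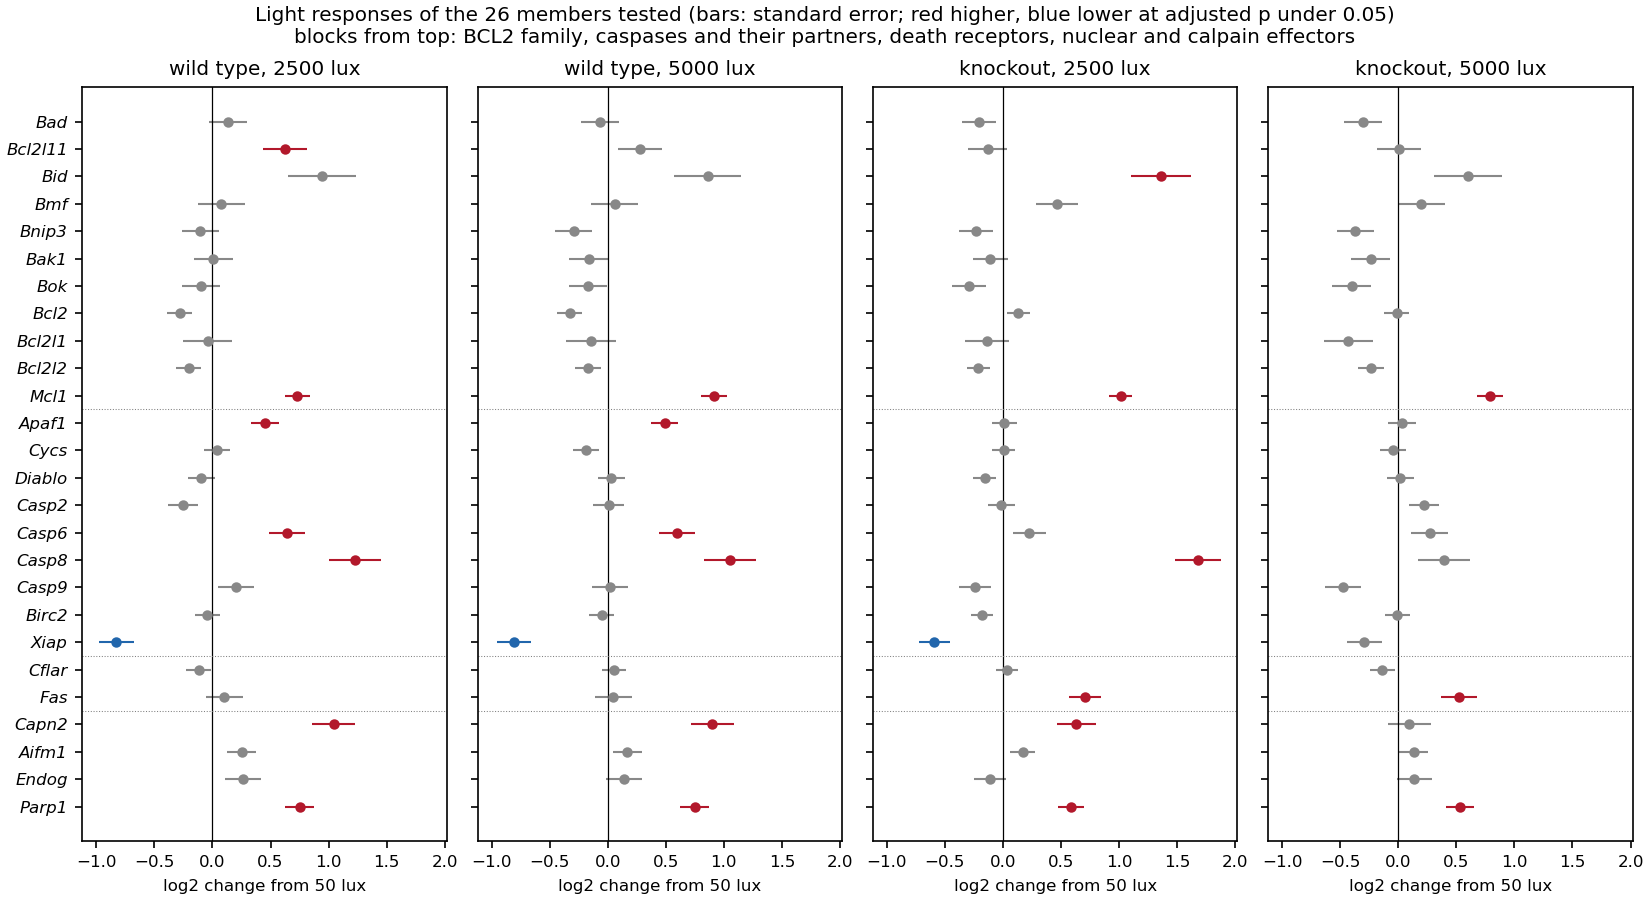
Log2 change from 50 lux (horizontal axis) of the 26 members tested in each genotype and dose, with bars of 1 standard error, in blocks by role; red marks members called higher, blue members called lower. Mcl1 and Parp1 are red in all 4 panels, Xiap is blue in the first 3, and 16 members are grey throughout.

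Only Mcl1, a survival protein of the BCL2 family, and Parp1, a nuclear enzyme that builds ADP-ribose chains at DNA breaks, were called higher in all 4 light responses, 7.69% of the members tested against 3.22% of all genes. They are also the members for which all 11 arrays at 2500 and 5000 lux lay above all 5 arrays at 50 lux, a pattern seen in 5.90% of all genes. The reverse pattern, all bright arrays below all 50 lux arrays, was seen in 1 member, Xiap, and in 6.20% of all genes. The 250 bases before the RefSeq transcription start of both risen genes (GRCm38.p6, plus strand, chr3:95658471-95658720 for Mcl1 and chr1:180568641-180568890 for Parp1) are shown because they are the promoters of the members called in all 4 light responses. Capitals mark every match to 7 motifs searched on both strands: AP-1 (TGANTCA), CRE (TGACGTCA), STAT (TTCNNNGAA), C/EBP (TTGCNNAA), NF-kB (GGNNTTTCC), IRF (AANNGAAA) and the GC box (GGGCGG).
Mcl1: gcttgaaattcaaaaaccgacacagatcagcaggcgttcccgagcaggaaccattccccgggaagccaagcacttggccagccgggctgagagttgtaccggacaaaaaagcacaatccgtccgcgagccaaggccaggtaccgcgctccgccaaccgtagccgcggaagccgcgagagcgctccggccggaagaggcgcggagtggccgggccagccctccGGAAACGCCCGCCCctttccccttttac
Parp1: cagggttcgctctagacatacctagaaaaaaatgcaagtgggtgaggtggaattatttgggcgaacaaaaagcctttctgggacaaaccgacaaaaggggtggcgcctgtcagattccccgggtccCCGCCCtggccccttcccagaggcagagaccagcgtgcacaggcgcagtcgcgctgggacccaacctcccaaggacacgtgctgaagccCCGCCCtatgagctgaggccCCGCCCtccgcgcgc

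The Mcl1 window held an NF-kB match 28 to 20 bases before the start, whose last base is also the first of a GC box match at 20 to 15. The Parp1 window held 3 GC box matches, at 124 to 119, 35 to 30 and 15 to 10 bases before the start, and no match to the other 6 motifs. GC content was 64.4% for Mcl1 and 61.6% for Parp1, against a median of 52.4% over 32851 windows of the same length from 27025 genes. An NF-kB match occurred in 4.93% of those windows and in 2 of the 26 members tested, Mcl1 and Bcl2l1; a GC box occurred in 32.7% of windows and in 18 of the 26. The other shares were 6.75% for AP-1 (Capn2 and Fas), 1.55% for CRE (Birc2 and Cycs), 7.02% for STAT (Fas), 9.56% for C/EBP (Bid, Bmf and Cflar) and 21.3% for IRF (Bcl2l1, Birc2, Casp8 and Fas). These percentages are shares of windows, and a gene can have several windows. A member was counted if any of its windows matched, so counts and shares are not in the same unit. The motifs were chosen after the values of the members were known, and a match describes the letters of the window only.

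Among the survival proteins of the BCL2 family, Mcl1 rose and its relatives did not pass the test. On wild-type arrays Mcl1 read 10.11 and 10.003 at 50 lux, 10.67, 10.79 and 10.89 at 2500 lux, and 11.10, 10.84 and 10.97 at 5000 lux. On knockout arrays it read 9.9996, 10.18 and 10.06 at 50 lux, 11.07, 11.16 and 11.05 at 2500 lux, and 10.84 and 10.90 at 5000 lux. The 50 lux arrays of both genotypes thus occupied the same narrow range, and every bright array stood above it. In wild-type retinas the rise of Mcl1 was 1.66-fold at 2500 lux (log2 change 0.73, SE 0.11, adjusted p = 0.00076) and 1.88-fold at 5000 lux (0.91, SE 0.11, adjusted p = 0.00012). In knockout retinas it rose 2.02-fold at 2500 lux (1.01, SE 0.10, adjusted p = 1.3e-05) and 1.73-fold at 5000 lux (0.79, SE 0.11, adjusted p = 0.00084). At 2500 lux all 3 knockout arrays were above all 3 wild-type arrays, but that difference of 0.31 (SE 0.10) was not called (adjusted p = 0.61).

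The array carries 6 probe sets for Mcl1, all tested. Called higher were 5 of them in each of the first 3 responses and 2 in knockout retinas at 5000 lux. The dimmest, with a mean level of 7.22, rose by the most, with log2 changes of 0.82 and 1.08 in wild-type and 1.42 and 1.20 in knockout retinas. Another, with a mean of 9.93, changed by 0.08, 0.31, 0.25 and 0.10 and was called in none. The remaining 3, with means of 10.57, 10.36 and 10.15, were called in the first 3 responses and read between 0.31 and 0.46 in knockout retinas at 5000 lux, with adjusted p from 0.073 to 0.14.

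Bcl2, Bcl2l1 (which encodes BCL-XL) and Bcl2l2 (BCL-W) are the other survival genes measured, and none was called in any of the 12 comparisons. Bcl2 read 7.09 and 7.07 on the wild-type arrays at 50 lux and between 6.74 and 6.82 on all 6 wild-type arrays at the bright doses. Its log2 change was -0.28 (SE 0.11, adjusted p = 0.12) at 2500 lux and -0.33 (SE 0.11, adjusted p = 0.078) at 5000 lux. In knockout retinas Bcl2 read 6.66, 6.40 and 6.74 at 50 lux, below both wild-type arrays of that dose. The knockout difference at 50 lux was -0.48 (SE 0.11, adjusted p = 0.098), the smallest p of any member in a genotype comparison; it was called without the filter on dim probe sets and with array weights. The knockout light responses of Bcl2 were 0.13 (SE 0.10, adjusted p = 0.38) at 2500 lux and -0.01 (SE 0.11, adjusted p = 0.95) at 5000 lux. Dimmer Bcl2 probe sets, with means of 5.29, 4.84 and 3.37, changed by between -0.83 and -0.19 in wild-type retinas. In knockout retinas these probe sets changed by between 0.07 and 1.07. None was called in a light response (adjusted p from 0.062 to 0.9). Bcl2l1 and Bcl2l2 changed by between -0.43 and -0.04 in the 4 responses, with adjusted p from 0.16 to 0.94.

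BH3-only genes, whose products antagonise the survival proteins, split into 2 that were called, 2 that were not and 2 too dim to test. Bid, whose protein is cut by caspase-8 and carries the death receptor signal to mitochondria, read 4.21 and 3.63 on wild-type arrays at 50 lux, 4.66, 4.79 and 5.13 at 2500 lux, and 4.66, 4.48 and 5.20 at 5000 lux. On knockout arrays Bid read 4.66, 4.03 and 3.58 at 50 lux, 5.28, 5.64 and 5.42 at 2500 lux, and 4.66 and 4.72 at 5000 lux. The 3 knockout arrays at 2500 lux were the highest of all 16. Bid rose 2.57-fold there (log2 change 1.36, SE 0.26, adjusted p = 0.0025). The other responses of Bid were also above 0 but not called, at 0.94 (SE 0.29, adjusted p = 0.052) and 0.86 (adjusted p = 0.081) in wild-type retinas and 0.60 (adjusted p = 0.18) in knockout retinas at 5000 lux.

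Bcl2l11, which encodes the BH3-only protein BIM, was called higher in wild-type retinas at 2500 lux alone (1.54-fold, log2 change 0.63, SE 0.19, adjusted p = 0.048). Its wild-type arrays read 6.61 and 6.65 at 50 lux, 7.05, 7.07 and 7.63 at 2500 lux, and 6.85, 6.94 and 6.92 at 5000 lux. Knockout arrays lay between 6.75 and 7.26 at all doses, with no separation by light. The call was lost without wild-type 2500 lux replicate 3, the highest array (adjusted p = 0.15), and without either wild-type 50 lux array (0.22 and 0.18). It held in 4 of 9 other settings. The knockout response of Bcl2l11 at 2500 lux minus the wild-type response was -0.76 (SE 0.25, 95% interval -1.30 to -0.21), and this interaction was not called (adjusted p = 0.42). A pair of dimmer Bcl2l11 probe sets, with changes of 0.25 and 0.18 in the same response, were not called.

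Bad and Bmf, the BH3-only genes not called, and Bnip3, which encodes a mitochondrial protein of mitophagy and hypoxia, had log2 changes that ran from -0.37 to 0.47. The largest of these was that of Bmf in knockout retinas at 2500 lux, 0.47 (SE 0.18, adjusted p = 0.09). Bbc3 and Pmaip1, which encode the p53-induced proteins PUMA and NOXA, did not reach the filter on any array: Bbc3 lay between 2.76 and 2.86, and Pmaip1 at or near the lowest value of the data, 2.21, with a highest array of 2.35. The pore formers Bak1 and Bok were tested and not called, with changes from -0.40 to 0.01. Bax was not analysed here, and Bnip3l was not tested because its 3 probe sets carry a second symbol, that of the related Bnip3l-ps. Of 11 tested genes of the BCL2 family, 2 were therefore higher in wild-type retinas at 2500 lux (Mcl1 and Bcl2l11), 1 at 5000 lux (Mcl1), 2 in knockout retinas at 2500 lux (Mcl1 and Bid) and 1 at 5000 lux (Mcl1), and none was lower.

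**Figure D2:**
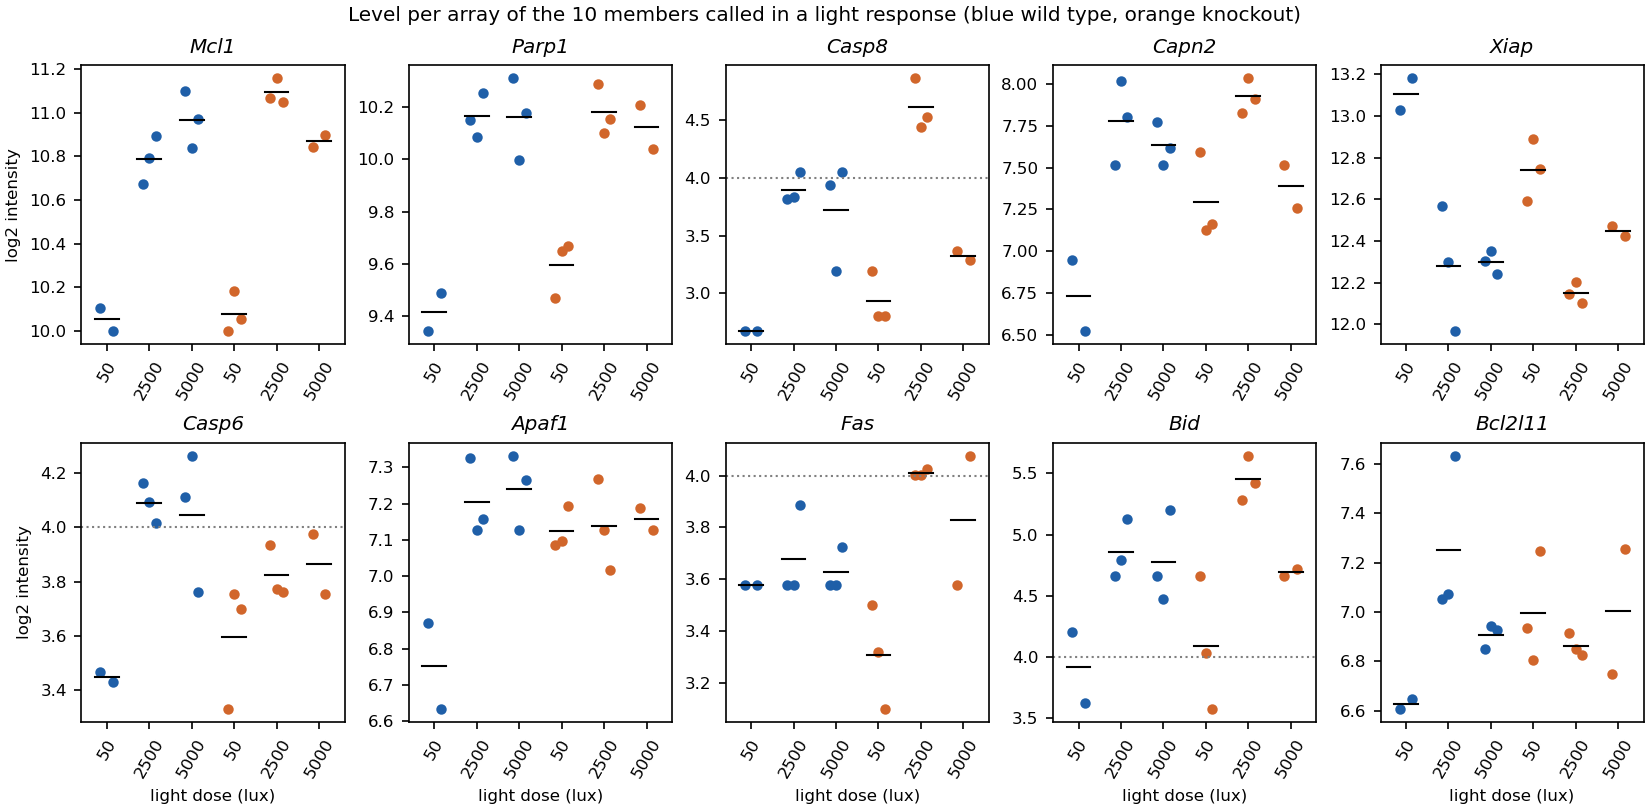
Log2 intensity (vertical axis, own scale for each gene) on every array of the 10 members called in at least 1 light response, by light dose in lux, with wild-type arrays in blue, knockout arrays in orange, a line at each group mean and a dotted line at log2 4. All bright arrays of Mcl1 and Parp1 stand above all 50 lux arrays and all bright arrays of Xiap stand below them, while Casp8, Casp6 and Fas lie at or under log2 4 on every 50 lux array.

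Caspases and their partners contributed 3 higher members and 1 lower member of 9 tested in wild-type retinas at each bright dose, 1 and 1 in knockout retinas at 2500 lux and none in knockout retinas at 5000 lux. Casp8, which encodes the initiator caspase of death receptors, was called in 3 of the 4 responses. On wild-type arrays it read 2.67 and 2.67 at 50 lux, 3.81, 3.83 and 4.05 at 2500 lux, and 3.93, 3.19 and 4.05 at 5000 lux. On knockout arrays Casp8 read 3.19, 2.81 and 2.81 at 50 lux, 4.87, 4.45 and 4.53 at 2500 lux, and 3.37 and 3.29 at 5000 lux. It was below log2 4 on all 5 arrays at 50 lux and passed the filter through bright arrays, so it could only have differed upwards. The log2 change was 1.23 (SE 0.22, adjusted p = 0.0028) and 1.05 (SE 0.22, adjusted p = 0.0075) in wild-type retinas, with no fold given because both group means were under log2 4.

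In knockout retinas Casp8 rose at least 1.53-fold at 2500 lux (log2 change 1.68, SE 0.20, adjusted p = 6.3e-05), and its change at 5000 lux was 0.39 (SE 0.22, adjusted p = 0.25). Knockout arrays at 5000 lux lay below all knockout arrays at 2500 lux, a step of -1.28 (SE 0.22) that missed the threshold (adjusted p = 0.054) and passed it when arrays were centred on their medians. The knockout responses differed from the wild-type responses by 0.45 at 2500 lux (adjusted p = 0.64) and -0.66 at 5000 lux (adjusted p = 0.61). The wild-type call at 5000 lux was lost without either wild-type 50 lux array (adjusted p = 0.067 and 0.058).

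Casp6, an executioner caspase, passed the filter only through bright wild-type arrays, the group in which it was called. It was below log2 4 on all arrays at 50 lux, at 3.47 and 3.43 in wild-type and 3.33, 3.75 and 3.70 in knockout retinas. Its wild-type arrays read 4.16, 4.09 and 4.02 at 2500 lux and 4.11, 4.26 and 3.76 at 5000 lux, all above the wild-type 50 lux arrays but close to the limit of measurement. Casp6 rose at least 1.06-fold at 2500 lux (log2 change 0.64, SE 0.16, adjusted p = 0.018) and at least 1.03-fold at 5000 lux (0.60, SE 0.16, adjusted p = 0.028). Knockout arrays at the bright doses lay between 3.75 and 3.97, with changes of 0.23 and 0.27 that were not called (adjusted p = 0.29 and 0.27). Neither wild-type call held without wild-type 50 lux replicate 1 or 2 (adjusted p from 0.099 to 0.15), and the call at 5000 lux also needed replicates 1 and 2 of its own group (0.075 and 0.093 when either was left out). Of 8 other settings, the call at 2500 lux held in 7 and that at 5000 lux in 4. Both were lost with an intensity of 16 added before log2.

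Apaf1, the scaffold of the apoptosome, differed between the wild-type 50 lux arrays and all others. They read 6.87 and 6.63, while the wild-type arrays read 7.33, 7.13 and 7.16 at 2500 lux and 7.33, 7.13 and 7.26 at 5000 lux. Knockout arrays read 7.09, 7.10 and 7.19 at 50 lux, 7.27, 7.13 and 7.02 at 2500 lux, and 7.19 and 7.13 at 5000 lux. The knockout arrays at 50 lux therefore already lay above both wild-type 50 lux arrays and overlapped the bright arrays. The rise of Apaf1 in wild-type retinas was 1.37-fold at 2500 lux (log2 change 0.45, SE 0.12, adjusted p = 0.024) and 1.40-fold at 5000 lux (0.49, SE 0.12, adjusted p = 0.016), whereas it changed by 0.01 and 0.03 in knockout retinas (SE 0.10 and 0.12).

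The genotype difference of Apaf1 at 50 lux was 0.37 (SE 0.12, adjusted p = 0.20). Its knockout response minus its wild-type response was -0.44 (95% interval -0.78 to -0.10, adjusted p = 0.45) at 2500 lux and -0.46 (-0.81 to -0.10, adjusted p = 0.55) at 5000 lux; neither was called. Both wild-type calls were lost without wild-type 50 lux replicate 2 (adjusted p = 0.23 and 0.19). Leaving out replicate 1 at 2500 lux also ended the 2500 lux call (0.066), and leaving out replicate 1 or 3 at 5000 lux ended the 5000 lux call (0.055 and 0.056).

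Xiap, the caspase inhibitor, was the member that fell. Wild-type arrays read 13.03 and 13.18 at 50 lux, 12.57, 12.30 and 11.97 at 2500 lux, and 12.30, 12.35 and 12.24 at 5000 lux. Knockout arrays read 12.59, 12.89 and 12.74 at 50 lux, 12.15, 12.20 and 12.10 at 2500 lux, and 12.47 and 12.42 at 5000 lux. Every bright array was below every 50 lux array, although the margin between the lowest 50 lux array and the highest bright array was narrow. Xiap fell 1.77-fold and 1.75-fold in wild-type retinas (log2 change -0.83 and -0.81, SE 0.15 each, adjusted p = 0.0029 and 0.0035) and 1.51-fold in knockout retinas at 2500 lux (-0.59, SE 0.13, adjusted p = 0.0075). At 5000 lux the knockout change was -0.29 (SE 0.15, adjusted p = 0.21), and its difference from the wild-type response, 0.51 (SE 0.21), was not called (adjusted p = 0.59).

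The probe sets of Xiap differed among themselves. All 7 were tested; 5 were called lower in wild-type retinas at 2500 lux, 3 at 5000 lux, 2 in knockout retinas at 2500 lux and none at 5000 lux, and none was called higher. The second brightest, with a mean level of 10.14, changed by -1.33 and -1.09 in wild-type retinas (adjusted p = 0.007 and 0.022) and by -0.57 and -0.26 in knockout retinas (0.13 and 0.56). A dim probe set with a mean of 4.42 gave the largest falls, -2.53, -2.12 and -1.88 (adjusted p = 0.00019, 0.00077 and 0.00047), and -1.05 in knockout retinas at 5000 lux (0.051). A pair with means of 5.42 and 5.04 read above 0 in knockout retinas at both doses, between 0.40 and 1.31, and were not called there (adjusted p from 0.17 to 0.54). The dimmest changed by at most 0.03.

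Casp2, an initiator caspase active in DNA damage, Casp9, the caspase of the apoptosome, Cycs (cytochrome c), Diablo, which releases caspases from their inhibitors, and Birc2, a ubiquitin ligase related to XIAP, were tested and not called. The nearest to the threshold was Casp9 in knockout retinas at 5000 lux, at -0.48 (SE 0.15, adjusted p = 0.06). Its knockout arrays lay between 7.17 and 7.31 at 50 lux and between 6.61 and 6.90 at 5000 lux without overlap. Dimmer Casp9 probe sets, with means of 5.20 and 4.94, read -0.24 (adjusted p = 0.42) and 0.24 (adjusted p = 0.4) in that response. Cycs, which differed by 0.04 or less from no change in 3 of the responses, stayed between 11.56 and 11.96 on all 16 arrays. The caspase-1 subfamily, which drives pyroptosis and inflammation, did not reach the filter. Casp4 was at the lowest value of the data, 2.21, on all 16 arrays, Casp12 on 15 of 16, and Casp1 lay between 2.21 and 2.59. Birc3, the inhibitor induced by NF-kB, was at that lowest value on 13 arrays and reached 2.33. Such values give an upper bound on the level and no fold.

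Death receptor and necroptosis genes were measurable in only 2 of 6 cases, Fas and Cflar. Fas, the receptor for FAS ligand, was below log2 4 on every wild-type array and on every 50 lux array, and passed the filter through bright knockout arrays. It read 3.58 on 6 of 8 wild-type arrays and 3.88 and 3.72 on the others, 1 at each bright dose. On knockout arrays Fas read 3.50, 3.32 and 3.10 at 50 lux, 4.003, 4.004 and 4.03 at 2500 lux, and 3.58 and 4.08 at 5000 lux, so no bright knockout array fell into the range of the knockout 50 lux arrays. The 3.58 of knockout 5000 lux replicate 1 is the same value as that of both wild-type 50 lux arrays. Fas was called higher in knockout retinas at 2500 lux (log2 change 0.71, SE 0.14, adjusted p = 0.0032, at least 1.01-fold) and at 5000 lux (0.52, SE 0.16, adjusted p = 0.048, no fold since both means were under log2 4).

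In wild-type retinas Fas changed by 0.10 (adjusted p = 0.76) and 0.05 (adjusted p = 0.90). The knockout response exceeded the wild-type response by 0.60 (SE 0.21, adjusted p = 0.44) at 2500 lux and 0.47 (SE 0.22, adjusted p = 0.61) at 5000 lux, and neither interaction was called. The call at 5000 lux was lost without knockout 5000 lux replicate 2 (change 0.27, adjusted p = 0.45) and without knockout 50 lux replicate 2 or 3 (0.074 and 0.11), and held in 2 of 8 other settings. Cflar, which encodes the caspase-8 inhibitor FLIP, lay between 7.15 and 7.54 on all arrays and changed by -0.14 to 0.05. Fadd, the adaptor between FAS and caspase-8, lay between 2.83 and 3.62 and was not tested. Ripk3 and Mlkl, the kinase and the executor of necroptosis, were both at the lowest value of the data, 2.21, on all 16 arrays, and Ripk1 was not analysed here.

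Nuclear and calpain effectors had 2 of 4 tested members higher in wild-type retinas at both doses and in knockout retinas at 2500 lux, and 1 in knockout retinas at 5000 lux. Parp1 read 9.34 and 9.49 on wild-type arrays at 50 lux, 10.15, 10.09 and 10.26 at 2500 lux, and 10.31, 9.997 and 10.18 at 5000 lux. On knockout arrays Parp1 read 9.47, 9.65 and 9.67 at 50 lux, 10.29, 10.10 and 10.16 at 2500 lux, and 10.21 and 10.04 at 5000 lux. The bright arrays of both genotypes and both doses shared a single range, from 9.997 to 10.31. The rise was 1.68-fold at each dose in wild-type retinas (log2 change 0.75, SE 0.12, adjusted p = 0.0013 and 0.0014), and 1.50-fold (0.59, SE 0.11, adjusted p = 0.0021) and 1.44-fold (0.53, SE 0.12, adjusted p = 0.016) in knockout retinas. The last of these calls was lost without knockout 50 lux replicate 1 (adjusted p = 0.053) and without either knockout 5000 lux array (0.062 and 0.061).

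Parp1 had 4 probe sets, all tested, and its brightest gave the largest change in each response. The number called higher was 1 and 2 in wild-type retinas at 2500 and 5000 lux, and 3 and 2 in knockout retinas. Those with means of 8.81 and 8.74 changed by between 0.27 and 0.43 in the 4 responses. The dimmest, with a mean of 7.70, ran from -0.41 to 0.41 and was never called.

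**Figure D3:**
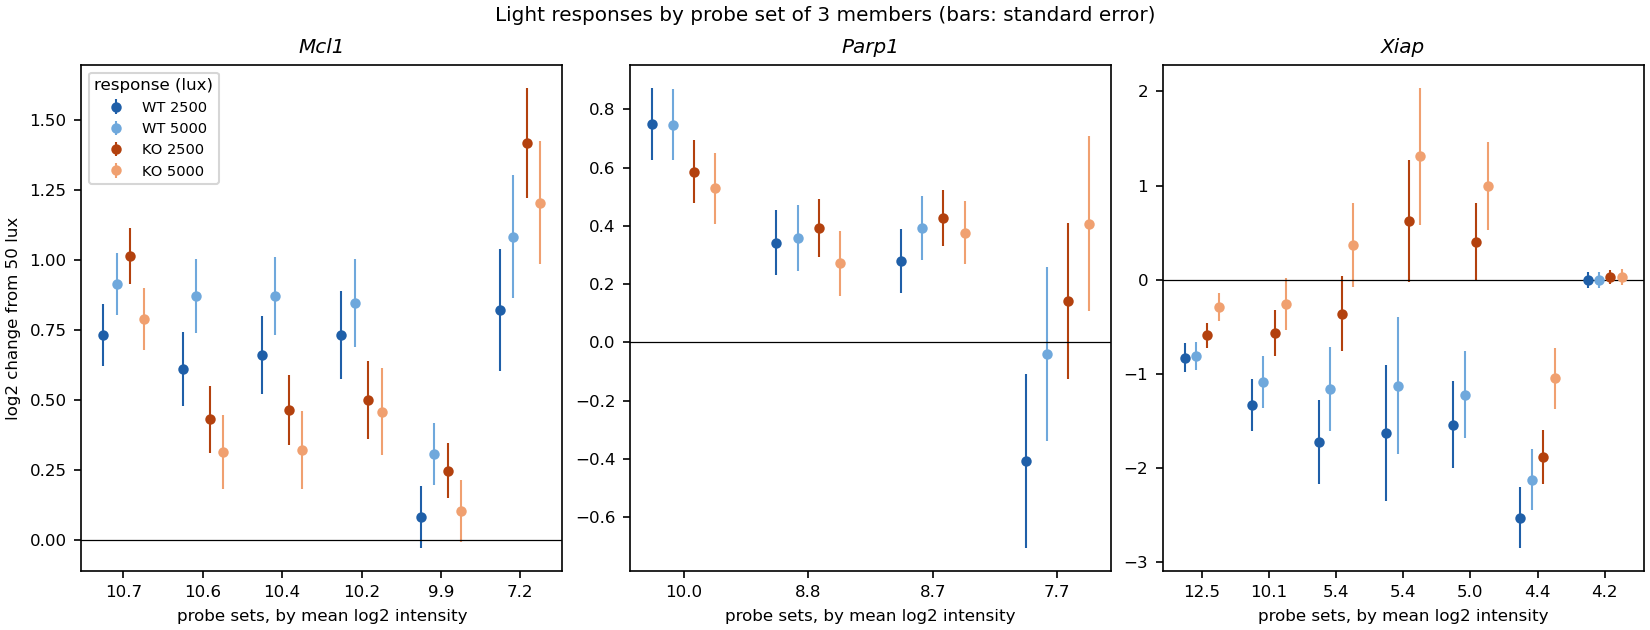
Log2 change from 50 lux (vertical axis) of every tested probe set of Mcl1, Parp1 and Xiap, ordered by mean log2 intensity (horizontal axis), in the 4 light responses, with bars of 1 standard error. For Mcl1 all 6 probe sets read above 0 in each response; for Xiap the wild-type values of 6 of 7 are below 0, while the knockout values of some dimmer probe sets are above 0.

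Capn2, the large subunit of m-calpain, a calcium-activated protease, read 6.95 and 6.52 on wild-type arrays at 50 lux, 7.52, 8.02 and 7.81 at 2500 lux, and 7.77, 7.51 and 7.62 at 5000 lux. On knockout arrays it read 7.59, 7.13 and 7.17 at 50 lux, 7.83, 8.04 and 7.91 at 2500 lux, and 7.52 and 7.26 at 5000 lux. The knockout arrays at 5000 lux lay inside the range of those at 50 lux, and the 50 lux arrays of knockout retinas lay above those of wild type. Capn2 rose 2.06-fold at 2500 lux (log2 change 1.05, SE 0.19, adjusted p = 0.0025) and 1.87-fold at 5000 lux (0.90, SE 0.19, adjusted p = 0.0067) in wild-type retinas and 1.55-fold at 2500 lux in knockout retinas (0.63, SE 0.17, adjusted p = 0.017). Its knockout change at 5000 lux was 0.09 (SE 0.19, adjusted p = 0.77).

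For Capn2 at 5000 lux the knockout response minus the wild-type response was -0.81 (95% interval -1.37 to -0.24), which was not called (adjusted p = 0.52), nor was the genotype difference at 50 lux of 0.56 (SE 0.19, adjusted p = 0.22). Both wild-type calls were lost without wild-type 50 lux replicate 2 (adjusted p = 0.051 and 0.11). The knockout call at 2500 lux was lost without knockout 50 lux replicate 2 or 3 or knockout 2500 lux replicate 2 or 3 (0.051 to 0.067). Aifm1, which encodes apoptosis-inducing factor, and Endog, a mitochondrial endonuclease, were not called: Aifm1 changed by 0.13 to 0.25 and Endog by -0.11 to 0.26. Capn1, the large subunit of the other ubiquitous calpain, was at the lowest value of the data on 15 arrays, with a highest value of 2.38.

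No member was called in the step from 2500 to 5000 lux in either genotype, in the genotype difference at any dose or averaged over doses, or in the interaction of genotype with either light response. At an unadjusted p under 0.05 in limma, 2 members passed in the wild-type step, 3 in the knockout step, 5, 5 and 0 in the genotype difference at 50, 2500 and 5000 lux, 1 in the mean over doses, and 5 and 4 in the interactions at 2500 and 5000 lux. Of all 10916 genes, 859 and 1499 passed that same cut in the steps, 1586, 752 and 189 in the genotype differences, 833 in the mean over doses, and 1040 and 928 in the interactions. At the adjusted threshold these comparisons called few genes at all. The dose step called 0.00% of genes in wild-type and 0.119% in knockout retinas. The genotype difference called 0.403% at 50 lux, 0.137% at 2500 lux, 0.00916% at 5000 lux and 0.0275% averaged over doses. The interactions called 0.0641% at 2500 lux and 0.0366% at 5000 lux. Over all genes the median genotype difference at 50 lux was 0.12, and the median interaction was -0.13 at 2500 lux and -0.12 at 5000 lux, against 0.07, -0.09 and -0.10 for the members. The members' differences between genotypes are to be read against those medians.

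The comparison of genotypes asks whether loss of Nxnl1 alters how the cell death genes respond to light, and the called members fell into 3 sets. Mcl1 and Parp1 were called in both genotypes at both doses, and Casp8, Capn2 and Xiap in both genotypes at 2500 lux. Apaf1, Casp6 and Bcl2l11 were called in wild-type retinas and not in knockout retinas, while Fas and Bid were called in knockout retinas and not in wild-type retinas. Casp6 and Fas passed the filter only through the bright arrays of the genotype in which they were called. No interaction of a member with genotype passed the adjusted threshold, so no member was shown to respond differently in the 2 genotypes, and with 2 or 3 arrays a group no member was shown to respond alike.

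**Figure D4:**
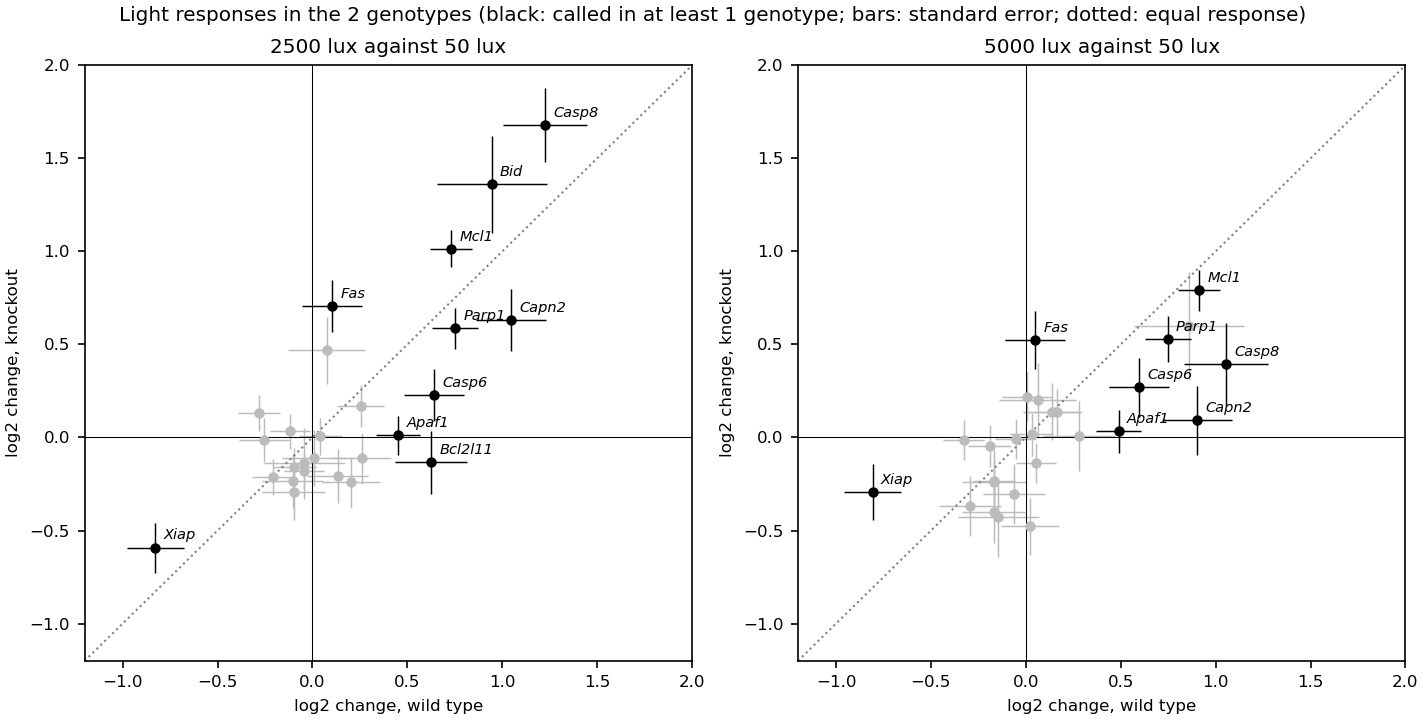
Log2 change from 50 lux in wild-type (horizontal axis) against knockout retinas (vertical axis) of the 26 members tested at 2500 lux (left) and 5000 lux (right), with bars of 1 standard error; black members are called in at least 1 genotype, and the dotted line marks equal responses. Fas lies above the line in both panels, and Apaf1, Casp6 and Capn2 lie below it, with bars that reflect 2 or 3 arrays a group.

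Other genes of these pathways were taken from a list of 107, of which 94 had a probe set of 1 symbol and 64 were tested; 1 of the 64, Ctss, is also a microglia marker. Called higher and lower were 10 and 3 of the 64 in wild-type retinas at 2500 lux, 9 and 4 at 5000 lux, 10 and 12 in knockout retinas at 2500 lux and 5 and 4 at 5000 lux, beside the shares of all genes given above. The median log2 change of the 64 was 0.15, 0.07, -0.0038 and -0.04. Higher in all 4 responses were the death receptor gene Tnfrsf1a, the TWEAK receptor gene Tnfrsf12a, Ninj1, whose protein ruptures the membrane of dying cells, Parp3, a relative of Parp1, and Tmbim1, of a family of antiapoptotic membrane proteins. Their log2 changes in wild-type retinas at 2500 lux were 1.83 (SE 0.23) for Tnfrsf1a, 1.55 (SE 0.20) for Tnfrsf12a, 1.46 (SE 0.23) for Ninj1, 2.00 (SE 0.29) for Parp3 and 2.16 (SE 0.31) for Tmbim1. In knockout retinas at 5000 lux, where they were smallest, they were 0.85, 1.10, 0.89, 1.61 and 1.34 (adjusted p = 0.032, 0.005, 0.025, 0.0049 and 0.016). Septin4, whose product ARTS binds XIAP, was lower in all 4 responses (-0.60, -0.79, -0.74 and -0.57, adjusted p = 0.012, 0.0021, 0.00077 and 0.019).

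Tnfrsf12a was the listed gene called outside the light responses. It was higher in knockout than in wild-type retinas at 2500 lux by 1.35 (SE 0.18, adjusted p = 0.015) and fell by 1.64 (SE 0.20, adjusted p = 0.013) from 2500 to 5000 lux in knockout retinas. Its light responses were 1.55 and 1.76 in wild-type and 2.74 and 1.10 in knockout retinas. At or below log2 4 on all arrays were 30 of the 94, among them the pyroptosis genes Gsdmd, Nlrp3 and Aim2, each with a highest value of 2.21, Il1b (2.83) and Pycard (2.89), the necroptosis sensor gene Zbp1 (2.44), and the ligand genes Tnf (2.45) and Fasl (2.21). Not all pyroptosis genes were dim. The gasdermin gene Gsdme, with a highest value of 9.97, was called higher in knockout retinas at 2500 lux (1.40, SE 0.31, adjusted p = 0.0067). Its wild-type responses were 0.70 and 0.55 (adjusted p = 0.24 and 0.39). The knockout response of Gsdme at 5000 lux was 0.91 (adjusted p = 0.1). Il18, with a highest value of 7.30, was not called in a light response (adjusted p from 0.082 to 0.98).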

How the data were processed

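The deposited values are one intensity per probe set and array for 45037 probe sets, on a linear scale, in the authors' table for the series. They were background-corrected and normalized with GCRMA, per the submitters' processing notes, in a version not given in the sources used here. GCRMA compresses low signals to a common lowest value, so dim members have bounds only. Identical values also occurred above that lowest value. Apaf1 read the same 7.13 on replicate 2 of every bright group. The standard deviation was 0 for Fas and Casp8 in wild-type retinas at 50 lux, Bok at 2500 lux and Bmf at 5000 lux. Values of Bcl2 (6.74) and Bid (4.66) also recurred across groups. How far such ties lower the estimated spread was not tested. Gene symbols came from the platform annotation: 34945 probe sets had 1 symbol, 932 several and 9160 none. Log2 was taken of the deposited intensity. With limma 3.58.1 (R 4.3.3), 1 linear model of 6 group means took in the 16 arrays together. Variances were moderated by eBayes without a trend (residual degrees of freedom 10, prior 3.18), and 12 contrasts were tested. Intervals are 95% and unadjusted. A fold is a lower bound ("at least") where every array of a group was at or below log2 4, its values being raised to that level, and is not given where both means were below it. Members called in any contrast are named with values, the others by range. The fit was tested on simulated data. Promoters are from a RefSeq table. The number of arrays limits the precision, and p-values measure the spread between labelled biological replicates. The members, gene lists and tests were chosen with earlier results of these data known. Alternatives were the filter, an intensity of 16 added before log2, median centring, quantile normalization, an intensity trend, array weights, the compared groups alone, a replicate block, all probe sets of a gene, and each array left out.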

Additional observations from a re-analysis of the deposited data

How the results depend on the processing

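No direction was reversed for the 25 named values called in a light response, and 12 of them were called under every alternative in which they were tested. Of the 12, Casp8 in both genotypes at 2500 lux and Bid and Fas in knockout retinas at 2500 lux did not pass the stricter filter and were not tested there. Of the counts of members called, fitting the compared groups alone gave 4 in wild-type retinas at 2500 lux (8 with all arrays), 4 at 5000 lux (7) and 0 in knockout retinas at 5000 lux (3); array weights gave 1 in the last. The stricter filter at log2 6 left 4 of 7 calls in knockout retinas at 2500 lux, as fewer members were tested. The genotype difference at 50 lux had 1 call (Bcl2) without a filter and with array weights, and the knockout dose step had 1 (Casp8, lower) after median centring; the cause was not tested. Leaving out 1 array at a time gave 4 to 8 and 3 to 6 calls in wild-type retinas at 2500 and 5000 lux, 6 to 7 and 1 to 4 in knockout retinas, and 0 in the other 8 comparisons. Arrays with the same replicate number correlated at -0.24 to 0.69 in their deviations from group means (36 pairs, 21 over 0.1). For 14 of 16 arrays, the mean correlation with arrays of other groups was highest for their own number. This is a hint from the data only, and the arrays were not treated as paired. With the replicate number as a block, 7, 7, 7 and 4 members were called in the light responses and 0 in the others; Bcl2l11 in wild-type retinas at 2500 lux was not called in that fit (adjusted p = 0.058). Dim signal limits Casp6, Casp8, Fas and Bid, which lay near or under log2 4 at 50 lux, and the members below the filter.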
